A study of Mus musculus with 9 samples.

Results

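The nuclear genes of oxidative phosphorylation were followed in livers of autoimmune-prone female mice of the MRL +/+ strain after repeated exposure to dichloroacetyl chloride (DCAC) or dichloroacetic anhydride (DCAA). Members were the array probe sets annotated with exactly 1 gene symbol that begins with Ndufa, Ndufb, Ndufc, Ndufs, Ndufv, Uqcr, Cox4 to Cox8 or Atp5, or that is Sdha, Sdhb, Sdhc or Sdhd. Where a gene had several such probe sets, the brightest stood for it. The rule found 179 of 34945 probe sets with 1 symbol, and these represent 90 of 18193 genes. By symbol alone, 36 were placed in complex I, Ndufa4 and Ndufa4l2 among them, and 8 were assembly factors of complex I (the Ndufaf genes). Complex II had 4 genes, complex III 8, complex IV 17 and complex V 17. The DCAC group and the DCAA group, 3 mice each, received 0.2 mmol/kg of compound in 100 µl of corn oil by intraperitoneal injection, 2 times a week for 6 weeks from 5 weeks of age. The corn oil group, also 3 mice, received the vehicle alone according to the design text, while the sample labels call it untreated. Tissue was collected 24 h after dosing ended, at 11 weeks of age. Each sample, called liver in its label, was hybridised to its own array. Both compounds carry the dichloroacetyl group, as the acid chloride in DCAC and as the anhydride in DCAA.

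Oxidative phosphorylation is carried out by 5 complexes of the mitochondrial inner membrane. Complex I oxidises NADH and complex II oxidises succinate, both passing electrons to ubiquinone, from which complex III hands them to cytochrome c and complex IV to oxygen. Complexes I, III and IV pump protons as electrons pass, and complex V, the ATP synthase, uses the returning protons to make ATP. Hepatocytes are rich in mitochondria, and most subunits are encoded by nuclear genes, while a small set of central subunits is encoded by mitochondrial DNA. Dichloroacetate, the acid that either compound can form in water, is known as an inhibitor of pyruvate dehydrogenase kinase, which holds back the entry of pyruvate into the mitochondrial oxidation of fuel.

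Arrays had been scaled to a common trimmed mean, so that a signal is a relative brightness of 1 probe set and signals of different genes are not compared. The array of control 2 stood apart: its summed signal of 10 measured hepatocyte markers was 25806, against 379340 to 525420 on the other 8 arrays, and its sum of 11 measured kidney markers was 158230, against 1691.3 to 2744.7. The uromodulin gene Umod gave 20921 on control 2, against 8.9 to 143.3 on the others. Comparisons therefore used control 1 and control 3, and control 2 is described separately. On the 8 arrays Alb, the albumin gene, read 43741 to 65450, and 0 of the 10 hepatocyte markers were at the floor. The arrays also differed in the 3'/5' signal ratio of pyruvate carboxylase, which sets probe sets near the 3' and 5' ends of a transcript against each other. It was 6.43 to 12.8 on DCAC 3 and all 3 DCAA arrays (the high-ratio arrays) and 2.85 to 3.99 on DCAC 1, DCAC 2 and both controls (the low-ratio arrays). Hepatocyte marker sums followed the same division, with 501620 on DCAC 3, 525420, 482420 and 496240 on DCAA 1 to 3, 379340 and 458210 on DCAC 1 and 2, and 392920 and 392430 on control 1 and 3. The sum of 4 brown fat markers was 394.1 to 633.0 in DCAC livers, 760.5 to 849.7 in DCAA livers and 419.6 to 444.6 in corn oil livers, with Ucp1 at the floor on 6 of 8 arrays and Cidea on all 8. The sum of 5 T and NK cell markers was 595.6 to 692.4 in DCAC livers, 546.3 to 767.9 in DCAA livers and 1045.5 to 2083.6 in corn oil livers. Of these, Ccl5, Nkg7 and Gzma were lower in every treated liver than in both corn oil livers. Cd3e and Cd3g did not follow the sum. Cd3e read 303.7 on DCAC 3, against 106.7 and 152.2 in corn oil livers, and Cd3g 276.4 on DCAA 3, against 134.9 and 222.9. The sum of 6 Kupffer cell markers was 4331.3 to 7700.9 in DCAC livers, 5393.5 to 6103.7 in DCAA livers, 4381.1 on control 1 and 16506 on control 3, which thus stood apart from the other corn oil liver. The part of these cells in the results was not tested. In whole tissue, fewer cells of a type and less RNA per cell cannot be told apart.

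Nearly the whole machinery gave a measurable signal in these livers. Of the 90 genes, 86 passed the filter, which asked for a signal above the array median on at least 3 of the 8 arrays. Those that did not were Ndufb4 of complex I and Cox7b2, Cox7c and Cox8b of complex IV. The probe set of Cox7c, a ubiquitous subunit, read 80.8, 147.5 and 142.5 in DCAC livers, 168.5, 146.1 and 216 in DCAA livers and 138.3 and 127.6 in corn oil livers. The pooled within-group SD between livers had a median of 0.186 log2 units over the 86 genes and 0.31 over all 24531 probe sets tested. The 86 genes were also bright, with a median at the 97.8th percentile of signal over the array. The SD was lowest for complex V, at 0.153, and highest for the complex I assembly factors, at 0.333. Their median percentiles of signal were 98.5 and 84.2. The part of brightness in the spread was not tested. The SD of single genes ranged from 0.052 for Atp5j, coupling factor 6 of the ATP synthase, to 0.956 for Cox7a1, the heart and muscle form of a complex IV subunit.

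**Figure D1:**
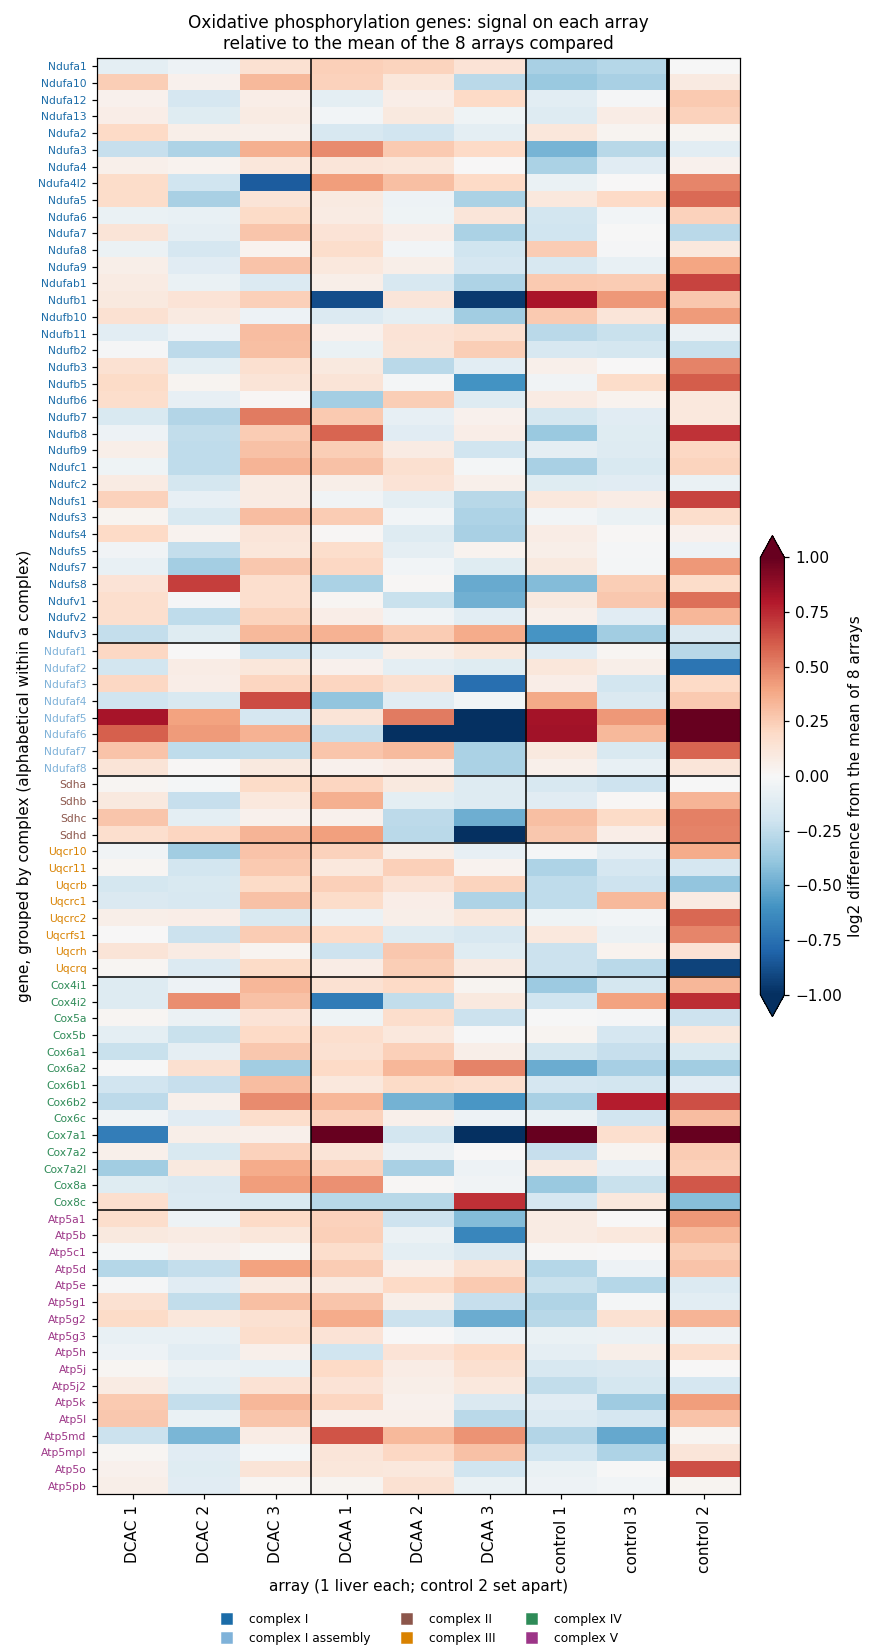
Signal of each of the 86 genes that passed the filter (rows, grouped by complex and coloured by it) on each array (columns), as the log2 difference from the mean of the 8 arrays compared, with colours ending at 1 in either direction. DCAC arrays stand left, then DCAA, then control 1 and control 3, and control 2 is set apart at the right; DCAC 3 is red in most rows, and single genes such as Cox7a1 and Ndufaf5 carry the strongest colours.

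No oxidative phosphorylation gene passed the test against corn oil with either compound. The test was limma on log2 signals with Benjamini-Hochberg adjustment over 24531 probe sets, at an adjusted p under 0.05. With DCAC, 0 of 86 genes passed, while 8 probe sets, 0.0326% of those tested, did. With DCAA, 0 of 86 passed, while 20 probe sets, 0.0815%, did. At an unadjusted p under 0.05, 3 genes were higher and 0 lower with DCAC, or 3.49% of the 86, where 5.02% of all probe sets reached that level. With DCAA, 17 were higher and 6 lower, or 26.7% of the 86, against a background of 12.6%. The share with DCAA was thus above its background and the share with DCAC was not, but the number with DCAA depended on single libraries, on the scaling and on the 3'/5' ratio class. It was 6 higher and 7 lower with control 2 included, the array with the kidney markers. Leaving out control 1 or control 3 leaves 1 corn oil array, so those counts cannot show a dependence and are not given. Leaving out DCAA 1 gave 10 higher and 11 lower, and leaving out DCAA 3 gave 17 and 2. Scaling to a common median gave 4 higher and 6 lower, and a block for the 3'/5' ratio class 2 and 2, with 1 of those 4 among the 23. The excess of higher over lower genes with DCAA was therefore not kept under every setting. The block for ratio class rests on DCAC 3 alone, since DCAC is the only group with arrays of both classes.

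By separation of individual livers, both compounds had a share of higher genes above that of all probe sets. All 3 DCAC livers lay above both corn oil livers for 16 genes (18.6%, against 11.2% of all probe sets) and below both for 3 genes (3.49%, against 12.5%). All 3 DCAA livers lay above both corn oil livers for 29 genes (33.7%, against 16.1%) and below both for 11 genes (12.8%, against 15.6%). The median log2 change was 0.077 with DCAC, with 63 of 86 values above 0, and 0.076 with DCAA, with 53 of 86 above 0. Over all probe sets the medians were -0.029 and -0.008. The sign of these medians was not fixed: DCAC gave -0.003 with quantile normalization, and DCAA gave -0.039 with a common median and -0.131 with a block for the 3'/5' ratio class. Both comparisons use the same 2 corn oil livers. The changes of most genes were bounded closely in this fit, which leaves out the 3'/5' ratio class. The 95% interval stayed inside a 2-fold change either way for 81 of 86 genes with DCAC and for 74 of 86 with DCAA. Its median half-width was 1.29-fold with DCAC and 1.3-fold with DCAA, against 1.56-fold over all probe sets. The part of brightness in these widths was not tested. With a block for ratio class, Ndufb7 and Uqcr10 gave -0.519 and -0.361 with DCAA. These values lie below their intervals of -0.244 to 0.684 and -0.282 to 0.519.

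**Figure D2:**
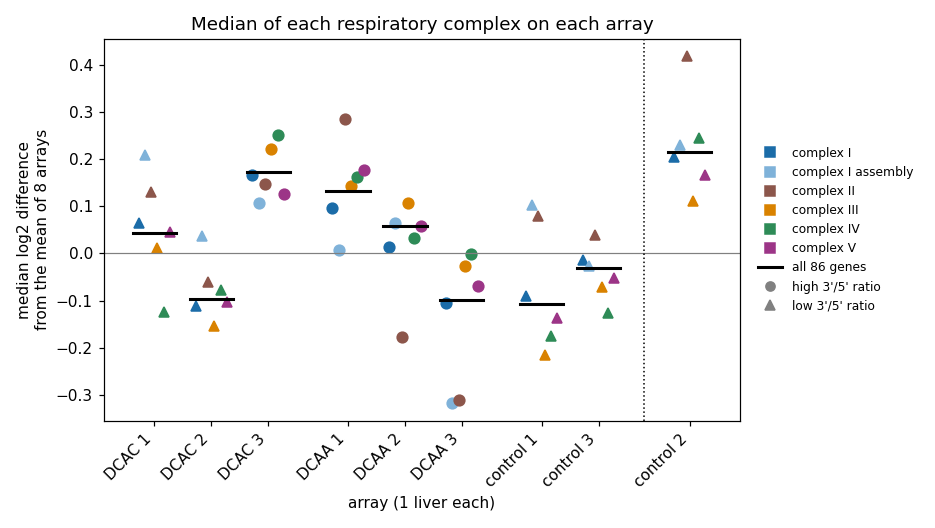
Median log2 difference from the mean of 8 arrays, on each array, for the genes of each complex (coloured points) and for all 86 genes (black bars), with circles for arrays of high 3'/5' ratio and triangles for low. Bars for DCAC 3 (0.172) and DCAA 1 (0.132) lie above 0, those for DCAC 2 (-0.0976), DCAA 3 (-0.0981) and control 1 (-0.107) below it, so that the 3 livers of each compound lie on both sides of 0.

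Complex I begins the chain. The 35 tested genes placed in it by symbol had a median log2 change of 0.078 with DCAC, with 24 above 0, and of 0.037 with DCAA, with 21 above 0. The subunits that bind the cofactors or are needed for catalysis showed no change that passed the test. Ndufv1, which binds NADH and flavin mononucleotide, read 7618.1, 6738.1 and 7629.5 in DCAC livers, 6873, 5796.7 and 4853.7 in DCAA livers and 7240.7 and 8156.7 in corn oil livers. Every DCAA liver lay below both corn oil livers, and DCAC livers overlapped with them. Against corn oil the log2 change of Ndufv1 was -0.071 ± 0.16 with DCAC (limma adjusted p = 0.991) and -0.41 ± 0.16 with DCAA (SE; adjusted p = 0.338). Its other probe sets, with mean signals of 5604 and 5745, gave only -0.087 and -0.11 with DCAA (limma adjusted p = 0.851 and 0.814). Ndufs1, the largest iron-sulfur subunit, differed by -0.016 ± 0.16 with DCAC and -0.23 ± 0.16 with DCAA (adjusted p = 0.995 and 0.585). Ndufs4, an accessory subunit whose loss in mice gives a Leigh-like brain disease, differed by 0.076 ± 0.15 with DCAC and -0.19 ± 0.15 with DCAA (adjusted p = 0.991 and 0.644).

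Among the accessory subunits, Ndufv3, Ndufa3, Ndufa1 and Ndufa10 had fitted changes above 0 with both compounds. Ndufv3, an accessory protein of the NADH-oxidising module, read 9238.5, 10059 and 13672 in DCAC livers, 13921, 13011 and 14106 in DCAA livers and 7260.9 and 8588.6 in corn oil livers. All treated livers lay above both corn oil livers, and DCAC 3 lay close to the DCAA livers. Its log2 change was 0.79 ± 0.17 with DCAA (SE; 95% interval 0.41 to 1.17; limma adjusted p = 0.15) and 0.46 ± 0.17 with DCAC (limma adjusted p = 0.933). With a block for the 3'/5' ratio class, which rests on DCAC 3, both compounds gave 0.288 for this gene. Ndufa3, in the membrane arm, read 8661.8, 8185.6 and 13023 in DCAC livers, 14090, 12178 and 11653 in DCAA livers and 7367.6 and 8371.7 in corn oil livers. DCAC 3 lay among the DCAA livers, and the other DCAC livers lay next to corn oil. The DCAA change was 0.68 ± 0.19 (SE; limma adjusted p = 0.206), and 0.053 with a block for ratio class.

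Ndufa1, a short membrane-arm subunit needed for assembly, read 15009, 15523 and 17892 in DCAC livers, 18927, 18777 and 17660 in DCAA livers and 12813 and 13206 in corn oil livers. Treated and corn oil livers did not overlap. The log2 change of Ndufa1 was 0.31 ± 0.14 with DCAC (limma adjusted p = 0.967) and 0.50 ± 0.14 with DCAA (adjusted p = 0.195). With a block for ratio class the DCAA change was 0.275. Ndufa10, an accessory subunit related to nucleoside kinases, had the smallest p with DCAC. It read 4542.3, 3949.1 and 4803.7 in DCAC livers, 4486.7, 4146.3 and 3176.9 in DCAA livers and 2960.8 and 3060.7 in corn oil livers, and again no treated liver reached down to the corn oil pair. The change was 0.55 ± 0.17 with DCAC (SE; limma adjusted p = 0.752) and 0.37 ± 0.17 with DCAA (adjusted p = 0.4). A dimmer probe set of Ndufa10, with a mean signal of 163.0, gave -0.225 with DCAC and -1.066 with DCAA. Ndufa4, first described in complex I and since assigned to complex IV, differed by 0.28 ± 0.13 with DCAC and 0.29 ± 0.13 with DCAA (adjusted p = 0.967 and 0.393).

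The lowest fitted changes of complex I were those of Ndufb1, an accessory subunit of the membrane arm. It read 247.8, 255.2 and 274.4 in DCAC livers, 125.7, 252.6 and 119.4 in DCAA livers and 409.3 and 312.9 in corn oil livers. All treated livers lay below both corn oil livers, and DCAA 2 lay apart from the other DCAA livers and beside the DCAC livers. Its log2 change was -1.20 ± 0.39 with DCAA (SE; limma adjusted p = 0.248) and -0.47 ± 0.39 with DCAC (adjusted p = 0.981). Ndufb9, also of the membrane arm, differed by 0.14 ± 0.18 with DCAC and 0.15 ± 0.18 with DCAA (adjusted p = 0.987 and 0.77).

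The assembly factors of complex I are not part of the finished enzyme, and help to put it together. Their 8 genes had a median log2 change of -0.032 with DCAC and -0.104 with DCAA, with 3 and 2 values above 0. Ndufaf6 read 231.1, 205.9 and 194.7 in DCAC livers, 130, 68.5 and 69.3 in DCAA livers and 273.2 and 191.8 in corn oil livers. The DCAA livers lay below all others, and the DCAC livers lay among the corn oil values. No DCAA array read above its median for Ndufaf6, so the gene passed the filter through the other livers. DCAA 2 and DCAA 3 lay next to their floors of 60.5 and 67.3. The change with DCAA was -1.43 ± 0.49 (SE; 95% interval -2.503 to -0.351; limma adjusted p = 0.275), against -0.12 ± 0.49 with DCAC (adjusted p = 0.992). Ndufaf5, which modifies an arginine of Ndufs7 in human cells, read 389.3, 290.3 and 196.3 in DCAC livers, 241, 315.9 and 28 in DCAA livers and 391.2 and 297.8 in corn oil livers. DCAA 3 alone was near the bottom of the scale, below the floor of 67.3 set for that array, and the groups overlapped. The brighter factors Ndufaf8 and Ndufaf1 differed by -0.056 ± 0.17 and 0.066 ± 0.17 with DCAA and by 0.093 ± 0.17 and 0.050 ± 0.17 with DCAC (lowest adjusted p = 0.905).

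Complex II, succinate dehydrogenase, also belongs to the citric acid cycle. Sdha, which holds the flavin and oxidises succinate, read 7508.9, 7302.8 and 8461.6 in DCAC livers, 8603.5, 7931.3 and 6783.1 in DCAA livers and 6649.3 and 6417.6 in corn oil livers. All treated livers lay above both corn oil livers by a small margin, with a log2 change of 0.24 ± 0.15 with DCAC and 0.24 ± 0.15 with DCAA (SE; limma adjusted p = 0.973 and 0.528). Another Sdha probe set, with a mean signal of 6999, gave 0.259 with DCAC and -0.169 with DCAA. A dim one, with a mean signal of 131.5, gave 0.779 and 0.927. No direction with DCAA can thus be given for Sdha. Sdhb, the iron-sulfur subunit, overlapped between groups, with changes of 0.040 ± 0.18 and 0.095 ± 0.18. The membrane anchors Sdhc and Sdhd had values below 0 with DCAA. Sdhc read 5126.3, 3958.9 and 4358.3 in DCAC livers, 4362.6, 3539.8 and 3014.1 in DCAA livers and 5214.5 and 4849.8 in corn oil livers. Each DCAA liver lay below both corn oil livers, and the change was -0.48 ± 0.18 (SE; limma adjusted p = 0.304). A dimmer probe set of Sdhc pointed the other way, at 0.41 (limma adjusted p = 0.546), so that no direction can be given for the gene. Sdhd read 7205.3, 7467.1 and 8124.1 in DCAC livers, 8519.5, 5325.1 and 2797.9 in DCAA livers and 7755.2 and 6737 in corn oil livers. The DCAA livers spread from above both corn oil livers to below them (limma adjusted p = 0.539).

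The cytochrome bc1 complex, complex III, had medians of 0.099 with DCAC and 0.095 with DCAA over its 8 genes, with 6 of 8 above 0 in each. Its catalytic Rieske protein Uqcrfs1 differed by -0.012 ± 0.17 with DCAC and -0.056 ± 0.17 with DCAA (SE; limma adjusted p = 0.996 and 0.922). The core protein Uqcrc1 differed by -0.036 ± 0.21 with DCAC and -0.053 ± 0.21 with DCAA. Uqcrb, which lies near the ubiquinone site, read 35174, 35785 and 45260 in DCAC livers, 46698, 43869 and 46259 in DCAA livers and 33230 and 34308 in corn oil livers. All treated livers lay above both corn oil livers, and DCAC 3 lay nearest to the DCAA livers. The DCAA change was 0.43 ± 0.15 (SE; limma adjusted p = 0.269), against 0.19 ± 0.15 with DCAC, and it was 0.082 with a block for ratio class. Another Uqcrb probe set, with a mean signal of 5676, gave -0.26 with DCAA. Uqcrq and Uqcr11 differed by 0.38 ± 0.14 and 0.36 ± 0.16 with DCAA and by 0.27 ± 0.14 and 0.27 ± 0.16 with DCAC (lowest adjusted p = 0.317). The block for ratio class gave 0.13 and 0.022 with DCAA for these genes.

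Complex IV, cytochrome c oxidase, has subunits that exist in different tissue forms, and in liver the ubiquitous or liver forms are known to dominate. Over 14 tested genes the median log2 change was 0.121 with DCAC, with 11 above 0, and 0.142 with DCAA, with 9 above 0. Cox4i1, the ubiquitous form of subunit 4, read 13706, 14430 and 18856 in DCAC livers, 16626, 17168 and 15241 in DCAA livers and 11647 and 13228 in corn oil livers. All treated livers lay above both corn oil livers, by 0.32 ± 0.16 with DCAC and 0.40 ± 0.16 with DCAA (SE; limma adjusted p = 0.967 and 0.347). With a block for ratio class the DCAA change of Cox4i1 was -0.028. Cox4i2, its oxygen-responsive counterpart of the lung, read 127.4, 192.3 and 170.4 in DCAC livers, 85.5, 117.3 and 149.1 in DCAA livers and 121.4 and 184 in corn oil livers, with overlap. Cox6a1, the liver form, read 21567, 23640 and 30348 in DCAC livers, 28036, 29762 and 26263 in DCAA livers and 22281 and 21494 in corn oil livers. DCAA livers and DCAC 3 lay above the rest, and the changes were 0.19 ± 0.16 with DCAC and 0.35 ± 0.16 with DCAA (adjusted p = 0.981 and 0.392). The block for ratio class gave -0.072 with DCAA for Cox6a1. Cox6a2, the heart and muscle form, read 330.8, 369.9 and 259.7 in DCAC livers, 379.3, 417.2 and 466.7 in DCAA livers and 235.1 and 262.7 in corn oil livers. Every DCAA liver exceeded both corn oil livers, with a change of 0.76 ± 0.27 (SE; limma adjusted p = 0.285), and of 1.185 with a block for ratio class.

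The summed signal of 6 skeletal muscle markers was 677.1, 790.1 and 932.6 in DCAC livers, 2068.1, 954.0 and 1192.2 in DCAA livers, and 794.8 and 978.1 in corn oil livers. Acta1 was at the floor on 6 of 8 arrays and Tnnt3 on 5, while on DCAA 1 they read 794.7 and 339.2. The part of this sum in the Cox6a2 values was not tested. Cox7a1, another heart and muscle form, read 102.8, 172.7 and 171.4 in DCAC livers, 352.8, 145.6 and 33.8 in DCAA livers and 577.6 and 185.7 in corn oil livers. The DCAC livers lay below both corn oil livers, while the DCAA livers lay partly below and partly between them, with DCAA 3 under its floor of 67.3. The Cox7a1 changes of -1.18 ± 0.67 with DCAC and -1.11 ± 0.67 with DCAA had wide errors (limma adjusted p = 0.967 and 0.527), and the DCAA change was -0.53 without DCAA 3. Their liver counterpart Cox7a2 differed by 0.14 ± 0.15 with DCAC and 0.12 ± 0.15 with DCAA. Cox7a2l, which joins complexes III and IV into supercomplexes, differed by 0.039 ± 0.22 and -0.049 ± 0.22. Cox8a, the ubiquitous form of subunit 8, read 9252.5, 9120.4 and 13434 in DCAC livers, 13812, 10152 and 9831.8 in DCAA livers and 7800 and 8623.2 in corn oil livers. No treated liver overlapped with corn oil, and the changes were 0.35 ± 0.20 with DCAC and 0.44 ± 0.20 with DCAA (adjusted p = 0.967 and 0.393). With a block for ratio class the DCAA change of Cox8a was -0.108.

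None of the remaining forms of complex IV passed the test. Cox8b, the muscle and brown fat form, did not pass the filter and read 45.1, 150.6 and 19.3 in DCAC livers, 179.1, 48.9 and 51.7 in DCAA livers and 39.8 and 17.9 in corn oil livers. Cox8b was above the floor of its array on DCAC 2 (52.7) and DCAA 1 (56.4) alone, and values below the floor have no order. Cox7b2, a testis form, also failed the filter, with signals from 7.9 to 75.9 on the 8 arrays. Cox8c and Cox6b2, known from testis, differed by -0.008 ± 0.28 and -0.15 ± 0.35 with DCAC and by 0.092 ± 0.28 and -0.47 ± 0.35 with DCAA. Cox6b1, the widely expressed form, lay above both corn oil livers in every DCAA liver. It differed by 0.14 ± 0.17 with DCAC and 0.33 ± 0.17 with DCAA (limma adjusted p = 0.987 and 0.441). With a block for ratio class the DCAA change of Cox6b1 was -0.189. Cox5a, a subunit on the matrix side, differed by 0.039 ± 0.15 and -0.023 ± 0.15 (limma adjusted p = 0.992 and 0.964).

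**Figure D3:**
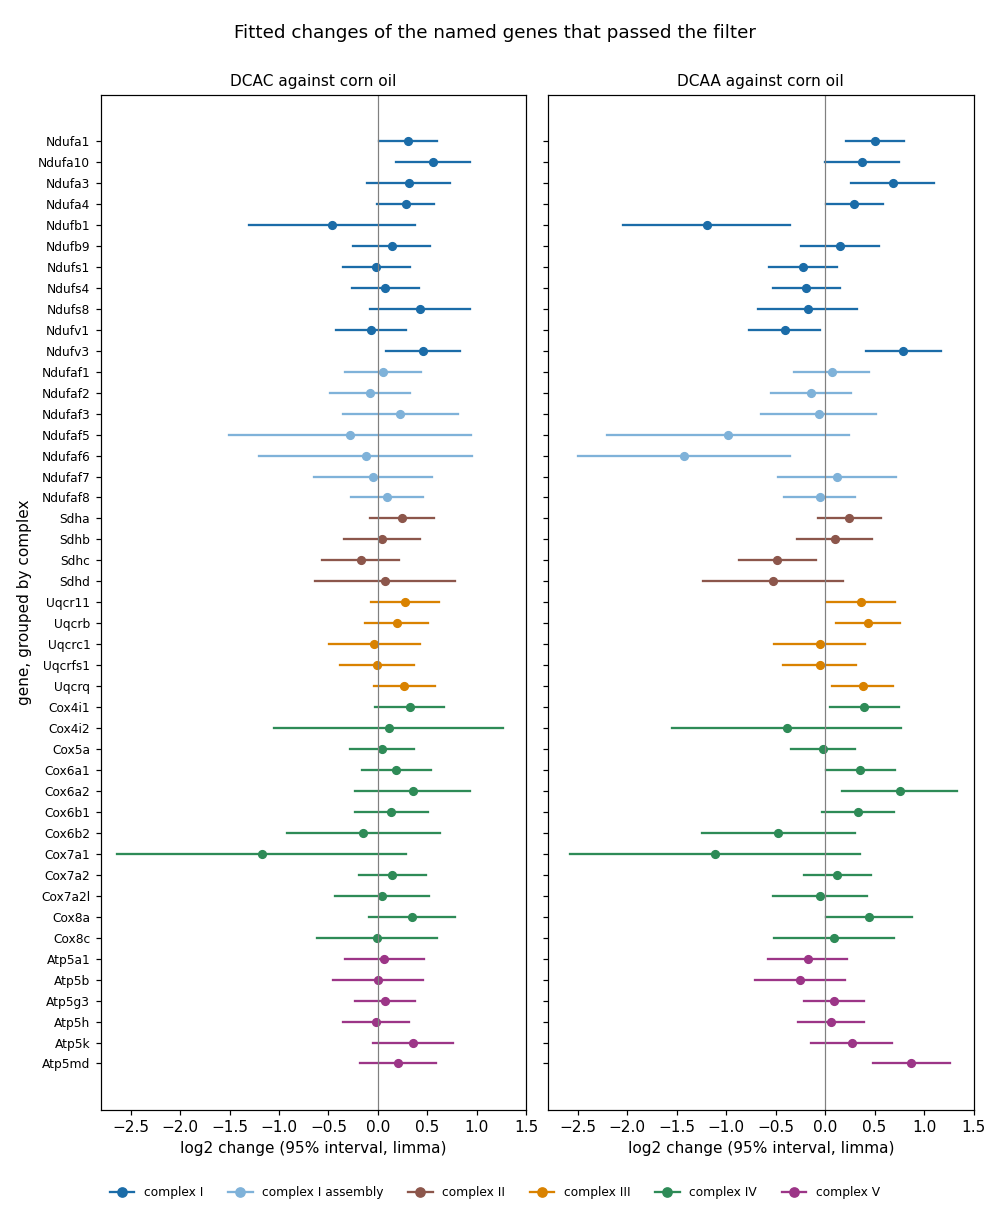
Log2 change with its 95% interval from limma, for the 45 named genes that passed the filter, with DCAC against corn oil at the left and DCAA against corn oil at the right. Most points lie within 0.5 of 0 on either side; Atp5md, Ndufv3 and Cox6a2 lie farthest to the right with DCAA and Ndufaf6, Ndufb1 and Cox7a1 farthest to the left, and no gene passed the adjusted threshold.

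Complex V had the narrowest spread and the most uniform sign with DCAC, where 16 of its 17 genes were above 0 with a median of 0.132. With DCAA 13 of 17 were above 0 with a median of 0.096. No subunit of the catalytic head passed the test. Atp5a1 differed by 0.064 ± 0.18 with DCAC and -0.18 ± 0.18 with DCAA, and Atp5b by 0.003 ± 0.21 and -0.25 ± 0.21 (SE; lowest limma adjusted p = 0.648). Atp5b read 20433, 20125 and 20557 in DCAC livers, 22454, 18284 and 12104 in DCAA livers and 20212 and 20459 in corn oil livers. DCAA 3 stood below all others. Atp5g3, which encodes the proton-carrying c subunit, differed by 0.073 ± 0.14 and 0.092 ± 0.14.

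Atp5md, a small membrane subunit that helps ATP synthase dimers to hold together, had the smallest p of all 86 genes. It read 3311.9, 2800.7 and 4042.2 in DCAC livers, 5941.5, 4819.5 and 5262.5 in DCAA livers and 3129.5 and 2698.1 in corn oil livers. Every DCAA liver lay above every other liver, including DCAC 3, and the DCAC livers overlapped with corn oil. The log2 change with DCAA was 0.87 ± 0.18 (SE; 95% interval 0.49 to 1.26; 1.83-fold; limma adjusted p = 0.114). It ranged from 0.464, with a block for ratio class, to 0.98 over the alternative settings. With DCAC it was 0.20 ± 0.18 (adjusted p = 0.981). The peripheral stalk subunit Atp5h differed by -0.020 ± 0.15 and 0.059 ± 0.15, and Atp5k, a membrane subunit of the dimer interface, by 0.35 ± 0.19 and 0.27 ± 0.19. Atp5mpl and Atp5e, chosen here after their values were seen, showed the same separation of DCAA from corn oil as Atp5md, with 0.46 ± 0.14 and 0.44 ± 0.14 (adjusted p = 0.218 and 0.242). Atp5e encodes the epsilon subunit of the rotor, and Atp5mpl a short membrane protein of the complex.

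**Figure D4:**
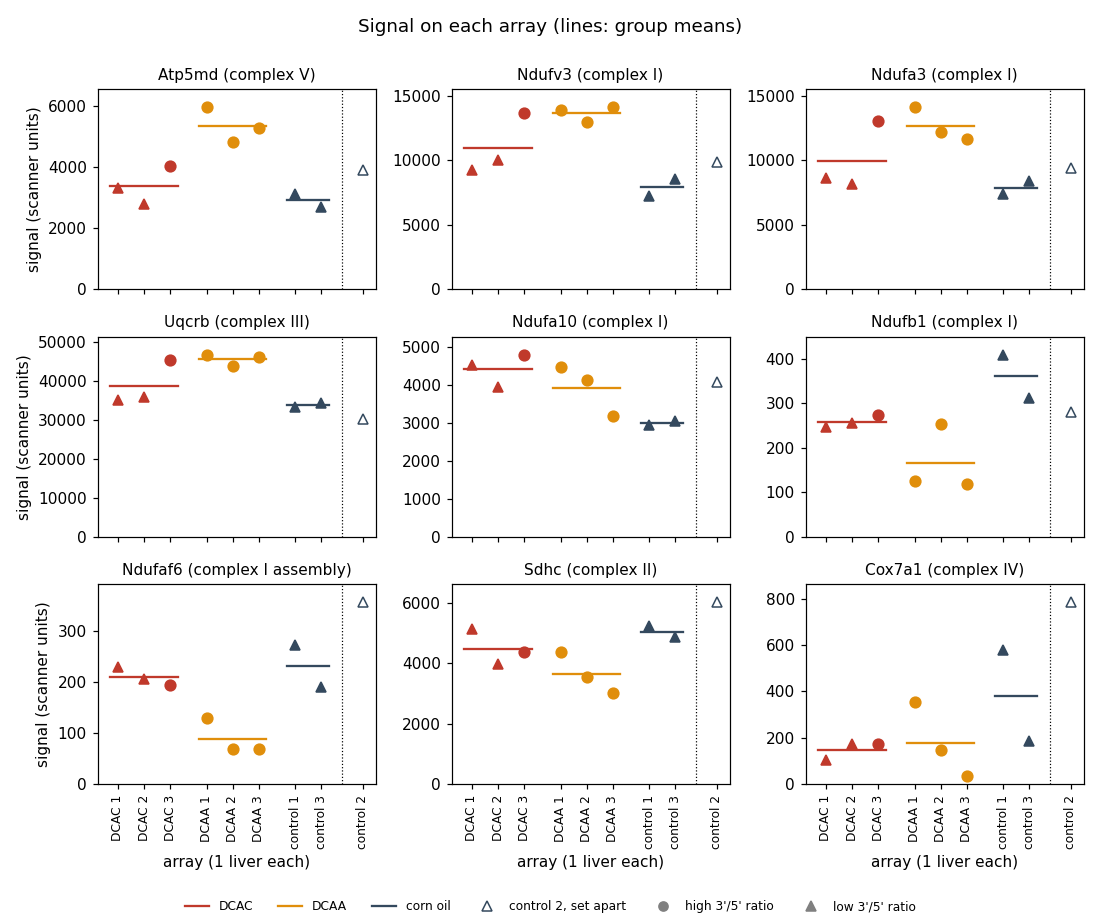
Signal of 9 genes on each array, in scanner units from 0, with DCAC in red, DCAA in orange, corn oil in dark blue and control 2 as an open symbol; lines are group means, circles are arrays of high 3'/5' ratio and triangles arrays of low ratio. Atp5md is highest on the 3 DCAA arrays, Ndufv3, Ndufa3 and Uqcrb are high on the DCAA arrays and on DCAC 3, and Ndufaf6 is lowest on the DCAA arrays.

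The compounds were also set against each other directly, at the same dose and time, as 1 pair. None of the 86 genes passed, and 1 of 24531 probe sets did (0.00408%). At an unadjusted p under 0.05, 3 genes were higher and 1 lower with DCAC than with DCAA, or 4.65% against 9.28% of all probe sets. These became 3 higher and 8 lower without DCAC 3, 10 higher and 1 lower without DCAA 1, 1 and 1 without DCAA 3, and 9 and 1 with a common median. DCAC livers lay wholly above DCAA livers for 5 genes (5.81%, against 6.32%) and wholly below for 5 (5.81%, against 7.63%). The median difference was -0.005, with 43 of 86 values above 0, and the 95% interval stayed inside a 2-fold difference for 76 genes. Atp5md differed by -0.67 ± 0.16 between DCAC and DCAA, lower with DCAC (SE; 95% interval -1.01 to -0.32; limma adjusted p = 0.403). Ndufaf6 differed by 1.30 ± 0.44, higher with DCAC (95% interval 0.34 to 2.27, adjusted p = 0.465). Its DCAA signals all lay below the array medians. Ndufs8, an iron-sulfur subunit on the path to ubiquinone, read 10438, 15360 and 10665 in DCAC livers and 7628.9, 9597.5 and 6719.5 in DCAA livers, and did not overlap. Its difference was 0.60 ± 0.21 (limma adjusted p = 0.465). Other Ndufs8 probe sets, with mean signals of 9277 and 9183, gave -0.40 and -0.305, and dimmer ones gave -0.384, -0.089 and 0.176. No direction can thus be given for Ndufs8. Ndufv1 differed by 0.34 ± 0.15 (95% interval 0.020 to 0.66, adjusted p = 0.52), and its other probe sets gave 0.162 and 0.171.

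Signals of several genes divided the arrays by their 3'/5' ratio. For 17 of 86 genes (19.8%, against 4.99% of all probe sets) all 4 high-ratio arrays lay above all 4 low-ratio arrays, and 1 gene (1.16%, against 5.41%) showed the opposite. That gene, named after its values were seen, was the accessory subunit Ndufb10. The 17 included Ndufa1, Ndufa3, Ndufv3, Uqcrb, Uqcrq, Uqcr11, Cox4i1, Cox6a1, Cox6b1, Cox8a, Atp5g3 and Atp5md. As 3 of the 4 high-ratio arrays are the DCAA arrays, the count is not independent of the comparison of DCAA with corn oil. DCAC 3 was treated with DCAC and has a high ratio. It exceeded the mean of DCAC 1 and DCAC 2 by a median of 0.17 over the 86 genes, against -0.016 over all probe sets. The mean of DCAC 1 and DCAC 2, which have the low ratio of the corn oil arrays, differed from corn oil by a median of 0.033 over the 86 genes.

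Across the 86 genes, the difference of DCAC 3 from the other DCAC livers and that of DCAA from corn oil had a Pearson r of 0.29 and a Spearman rho of 0.384. These differences share no array, but they share probe sets, and genes are not independent replicates. Over all probe sets r was 0.245. With a block for ratio class, a fit in which the DCAC group alone spans both classes, the median change was 0.033 with DCAC and -0.131 with DCAA, so the sign turned for DCAA. Among genes that were lower with DCAA, Ndufv1, Ndufb1, Ndufaf6 and Sdhc stayed below 0 in that fit, at -0.501, -1.324, -1.263 and -0.436. The 3'/5' ratio and DCAA treatment cannot be told apart in these arrays, since all 3 DCAA arrays have the high ratio and both corn oil arrays the low ratio. The hepatocyte marker sums that move with the ratio are given above, and their part in these values was not tested.

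**Figure D5:**
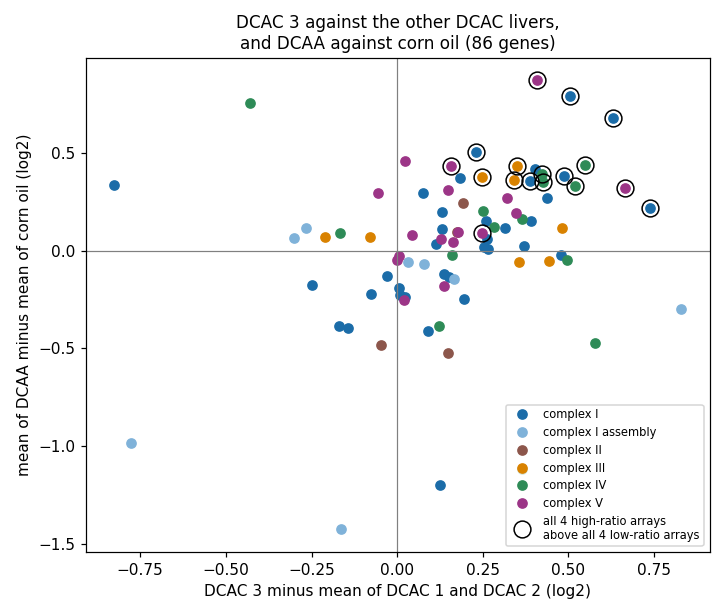
Each point is 1 of the 86 genes, coloured by complex: the x axis is the log2 difference of DCAC 3 from the mean of DCAC 1 and DCAC 2, and the y axis the log2 difference of DCAA from corn oil. Rings mark the 17 genes whose 4 high-ratio arrays all exceeded the 4 low-ratio arrays; all rings lie to the upper right of 0, as the way they were chosen fixes, and the correlation over the 86 genes was 0.29.

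The promoters of genes that read higher in every DCAA liver are shown because nuclear respiratory genes share binding motifs near their start sites. RefSeq promoter sequence on GRCm38.p6, from 250 bases before to 50 bases after the start, was found for 74 of the 90 genes. On both strands, a core of the NRF1 site (GCATGCGC) occurred in 11 of 74 promoters (14.9%), against 5.11% of 9891 genes tested on the array and 2.8% of 27025 genes. The ETS motif of the kind bound by GABPA (CCGGAAG) occurred in 18 (24.3%), against 17.0% and 9.12%, and a YY1 motif (AAGATGGC) in 9 (12.2%), against 4.5% and 2.88%. At least 1 of these motifs was present in 32 promoters (43.2%), against 24.4% and 13.8%, while the TATA box (TATAAA) was present in 8 (10.8%), against 8.11% and 14.2%. The median GC content was 59.0% in the 74 promoters, 60.3% in the genes tested and 52.7% in all genes. The sequences below run 5′ to 3′ on the strand of the gene, with these motifs in capitals. They belong to Atp5md and Ndufa3, which had the smallest and the fourth smallest p with DCAA, and to Uqcr11 and Cox6a1, picked after their values and motifs were seen. Ndufv3 and Ndufa1, which ranked between Atp5md and Ndufa3 by p, hold none of these motifs and are not shown. Atp5md is given at chr19:47090598-47090897 on the minus strand, Ndufa3 at chr7:3617123-3617422 on the plus strand, Uqcr11 at chr10:80406772-80407071 on the minus strand and Cox6a1 at chr5:115348909-115349208 on the minus strand.
Atp5md: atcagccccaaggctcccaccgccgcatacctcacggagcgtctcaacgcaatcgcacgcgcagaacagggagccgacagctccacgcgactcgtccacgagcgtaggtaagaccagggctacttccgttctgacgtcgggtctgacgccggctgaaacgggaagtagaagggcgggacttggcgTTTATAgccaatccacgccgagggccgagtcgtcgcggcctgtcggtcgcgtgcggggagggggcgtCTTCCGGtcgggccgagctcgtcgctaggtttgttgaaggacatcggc
Ndufa3: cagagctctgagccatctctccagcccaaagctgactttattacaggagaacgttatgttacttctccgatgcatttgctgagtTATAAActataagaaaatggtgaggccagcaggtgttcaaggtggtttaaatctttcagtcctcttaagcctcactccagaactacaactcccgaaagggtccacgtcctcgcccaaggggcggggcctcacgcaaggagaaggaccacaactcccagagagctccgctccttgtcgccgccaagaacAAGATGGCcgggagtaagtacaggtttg
Uqcr11: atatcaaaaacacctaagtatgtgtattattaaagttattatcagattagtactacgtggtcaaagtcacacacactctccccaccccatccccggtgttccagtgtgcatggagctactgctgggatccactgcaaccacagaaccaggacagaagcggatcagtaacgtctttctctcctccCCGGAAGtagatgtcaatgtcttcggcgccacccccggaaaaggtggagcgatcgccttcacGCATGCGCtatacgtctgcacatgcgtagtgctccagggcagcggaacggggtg
Cox6a1: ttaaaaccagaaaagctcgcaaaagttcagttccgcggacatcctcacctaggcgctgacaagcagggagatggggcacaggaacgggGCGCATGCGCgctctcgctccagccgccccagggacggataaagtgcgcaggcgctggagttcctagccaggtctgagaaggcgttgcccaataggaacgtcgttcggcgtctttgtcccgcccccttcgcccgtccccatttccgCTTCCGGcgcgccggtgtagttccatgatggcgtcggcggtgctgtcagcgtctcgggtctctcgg
Counted from the start site, Atp5md has TATAAA on the other strand at -65 and the ETS motif on the other strand at 3. Ndufa3 has TATAAA at -166 and the YY1 motif at 23. Uqcr11 has the ETS motif at -66 and the NRF1 motif at -4. Cox6a1 has the NRF1 motif on both strands, at -162 and -160, where the matches overlap, and the ETS motif on the other strand at -16. A match describes these letters and does not show that a factor binds there.

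Neighbouring parts of mitochondrial metabolism gave no called gene either: in each of 4 lists tested, 0 genes passed in either direction with either compound. Genes of the citric acid cycle, with 12 of 13 listed genes tested, had a median log2 change of 0.001 with DCAC and -0.247 with DCAA. With DCAA 10 of 12 values were below 0, 5 reached an unadjusted p under 0.05, against 12.6% of all probe sets, and 6 had every DCAA liver below both corn oil livers, against 15.6%. Cs, citrate synthase, read 3286, 3013 and 3156 in DCAC livers, 3123, 2570 and 2698 in DCAA livers and 3879 and 3772 in corn oil livers. Treated and corn oil livers did not overlap, and the changes were -0.28 ± 0.15 with DCAC and -0.46 ± 0.15 with DCAA (SE; limma adjusted p = 0.967 and 0.247). Sucla2, a subunit of succinyl-CoA synthetase, read 6599, 5780 and 5338 in DCAC livers, 5030, 4208 and 3607 in DCAA livers and 6223 and 5682 in corn oil livers. The DCAA livers lay below all others, with -0.49 ± 0.17 against corn oil (adjusted p = 0.272).

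Of 13 regulators of mitochondrial biogenesis, all were tested, with medians of 0.069 for DCAC and 0.059 for DCAA. Ppargc1a, the coactivator PGC-1alpha that drives expression of respiratory genes, read 536.6, 490.7 and 580.8 in DCAC livers, 793, 700 and 886.9 in DCAA livers and 467.8 and 442.9 in corn oil livers. All treated livers lay above both corn oil livers, and the DCAA livers lay above the DCAC livers. Its change was 0.80 ± 0.20 with DCAA (SE; limma adjusted p = 0.188) and 0.23 ± 0.20 with DCAC (adjusted p = 0.981). Tfam, which packages mitochondrial DNA and activates its transcription, and Yy1, a transcription factor of respiratory genes, differed by -0.42 ± 0.20 and -0.34 ± 0.16 with DCAA (adjusted p = 0.407 and 0.406).

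The 12 electron carriers and transporters had medians of 0.077 with DCAC and -0.163 with DCAA. Among them Cyc1, cytochrome c1, differed by -0.33 ± 0.17 and Vdac1, a pore of the outer membrane, by 0.33 ± 0.18 with DCAA (limma adjusted p = 0.45 and 0.487). The other assembly factors, 33 tested of 35 listed, had medians of 0.018 with DCAC and -0.097 with DCAA. Atpaf2, which assembles the head of the ATP synthase, read 363.1, 462.9 and 499.3 in DCAC livers, 285.6, 312.5 and 40 in DCAA livers and 668.8 and 448 in corn oil livers. DCAA livers lay below all others, with a change of -1.59 ± 0.54 (SE; adjusted p = 0.262), and DCAA 3 read below the floor of 67.3 set for that array, which stood in for it in the fit. Coa7, an assembly factor of complex IV, differed by -0.55 ± 0.20 with DCAA (adjusted p = 0.297). Genes encoded by mitochondrial DNA were not analysed here.

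The array of control 2 had high signals of respiratory genes together with its kidney markers. It exceeded all 8 other arrays for 34 of 86 genes (39.5%, against 24.8% of all probe sets) and lay below all of them for 5 (5.8%, against 23.8%). Its median difference from the mean of the 8 was 0.215 log2 units, against 0.024 over all probe sets. The highest relative values were those of Cox7a1 (784.4, against 33.8 to 577.6 on the 8 arrays), Ndufaf6 (357.6, against 68.5 to 273.2), Ndufaf5 (485.8, against 28.0 to 391.2) and Cox4i2 (231.7, against 85.5 to 192.3). The lowest were Uqcrq (6242.3, against 9812.8 to 14059), Ndufaf2 (475.1, against 697.3 to 855.0), Cox8c (899.9, against 995.9 to 2008.5) and Uqcrb (30202, against 33230 to 46698). Ppargc1a read 2540 on control 2. With this array kept in the corn oil group, 0 genes passed in any comparison, and the medians were 0.025 with DCAC and 0.001 with DCAA.

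Different probe sets of a gene did not always move together. Of 46 genes with more than 1 tested probe set, all probe sets had the same sign for 28 with DCAC and 25 with DCAA. The median gap between the brightest and another probe set was 0.116 with DCAC and 0.229 with DCAA, and the largest were 0.878 and 2.071. That last gap came from a Uqcrq probe set with a mean signal of 169.4 that gave 2.449 with DCAA (limma adjusted p = 0.144).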

How the data were processed

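Total RNA of 9 samples, all called liver in the sample labels, was labelled from an oligo-dT primer and hybridised to Affymetrix arrays, 1 per mouse. The authors deposited a linear signal intensity for each probe set, computed with the Affymetrix software GCOS per the submitters' processing notes. Its version is not given in the sources used here. The deposited intensity has the same mean on each array once 2% of probe sets are removed at each end. No 2 arrays were identical among 36 pairs. Each array was given a floor at its own 25th percentile, log2 was taken, and a probe set was kept if at least 3 of 8 arrays read above their median.

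DCAC, DCAA and corn oil livers entered 1 model in limma 3.58.1 (R 4.3.3), with moderated variances that follow the mean signal (eBayes with trend). P-values are two-sided, adjusted by Benjamini-Hochberg over 24531 probe sets. Control 2 was set apart. Livers of separate mice were processed independently, per the design text, and the number of arrays limits the precision. The test was first tried on simulated data. Gene symbols come from the platform annotation, and all 90 genes matched the RefSeq table of GRCm38.p6 with 0 symbols changed; 10 probe sets that carry a member beside another symbol were not used.

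The members, lists and tests were chosen with earlier results of these data known. Genes are named by rule: in each complex the 2 brightest and, for each compound, the highest and lowest change; the 4 smallest p in each comparison; isoform pairs of complex IV; the 4 highest and 4 lowest on control 2; subunits of well known role; and 2 per pathway list (Tfam and Yy1 were level for the last place). Arrays with the same replicate number did not deviate together across groups (correlations of -0.0408 to 0.0275, against -0.0664 to 0.0736 for other numbers), and were treated as unpaired. Alternatives were other scalings, floors, filters, probe set choices and models, blocks, and leaving out each array.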

Additional observations from a re-analysis of the deposited data

Results flagged for a closer look

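The array labelled control 2, used in no comparison, carried signals above those of the corn oil arrays that were compared. Its summed signal of 11 kidney markers was 158230, against 1973.0 on control 1 and 2063.4 on control 3. Among oxidative phosphorylation genes, Cox7a1 read 784.4 there, against 577.6 on control 1 and 185.7 on control 3. Ndufaf6 read 357.6, against 273.2 and 191.8, and Ndufaf5 read 485.8, against 391.2 and 297.8. Cox4i2 read 231.7, against 121.4 and 184.0. The respiratory genes and the kidney markers come from the same array, and how one bears on the other was not tested.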

How the results depend on the processing

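Under each of 23 other settings 0 oxidative phosphorylation genes passed limma's adjusted threshold in any comparison, and the smallest adjusted p of a gene was 0.05001. The counts at an unadjusted p under 0.05 moved more. For DCAA against corn oil, 23 became 10 with a common median, 10 without the intensity trend and 15 with the mean of all probe sets of a gene. It became 13 with all 9 arrays, control 2 among them, and 4 with a block for the 3'/5' ratio class. For DCAC against corn oil, 3 became 1 without DCAC 3, without the trend or with a block for ratio class, and 5 without DCAC 1 or DCAC 2. For DCAC against DCAA, 4 became 11 without DCAC 3 or DCAA 1, 10 with a common median, 9 with quantile normalization and 2 without DCAA 3. The median log2 change of the 86 genes moved beyond the spread of 0.116 between arrays in 3 cases. It was -0.131 for DCAA with a block for ratio class, 0.177 for DCAC against DCAA with that block, and 0.181 for DCAC against DCAA with a common median, a scaling that itself shifts the median of all probe sets by 0.172. The cause was not tested. Leaving out each array gave medians of 0.031 to 0.144 for DCAC, 0.047 to 0.136 for DCAA and -0.073 to 0.059 for DCAC against DCAA. Quantile normalization gave -0.003 for DCAC and 0.02 for DCAA, so the small positive medians have no fixed sign. With replicate number as a block (the replicate block) the medians were 0.111, 0.092 and -0.005, and no call changed. Over all probe sets, 8 calls with DCAC ranged from 0 to 14, 20 with DCAA from 0 to 87 and 1 for DCAC against DCAA from 0 to 3. The 87 came without DCAA 1. Of 3075 values of named genes under other settings 3014 stayed within their error and 61 did not, and 208 changed sign. A choice of probe sets without shared suffixes was added after seeing the data and changed no call.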
